A study of Arabidopsis thaliana with 15 samples.

Results

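Expansins and xyloglucan endotransglucosylase/hydrolases (XTHs) are families of secreted proteins that act on the primary wall of growing plant cells. Their members were taken from the deposited gene table as every gene whose description contains "expansin" or "xyloglucan endotransglucosylase", with case ignored. The rule found 65 of 33323 genes, of which 36 are expansins and 29 are XTHs. By name, the expansins split into 25 alpha-expansins (EXPA), 6 beta-expansins (EXPB), 4 expansin-like genes (EXLA and EXLB) and 1 pseudogene remnant (AT5G15546). Because the rule reads the description text, 5 relatives described in other words fall outside it. These are XTH23, XTH27, XTH31, XTH33 and EXP3, an alpha-expansin.

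RNA was sequenced from unopened flowers of 5-week-old Arabidopsis thaliana plants, all in the Col0 background, with 3 libraries for each of 5 genotypes. The mutants are ref6-3 and ref6C, each with a changed REF6 gene, then elf6-3ref6C (below, the double mutant) and elf6-3ref6Cjmj13G (the triple mutant), each set against wild type (WT). Every mutant therefore carries a REF6 allele, the double and triple mutants share elf6-3 and ref6C, and no group has a changed ELF6 or JMJ13 gene alone. The labels do not describe the lesions and do not state that the numbered replicates came from separate plants, so p-values cover the variation among these libraries, part or all of which could be technical.

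An expansin is a small wall protein that loosens the contact between cellulose and other wall polymers at acid pH without cutting them, and so lets a wall under pressure extend. An XTH cuts a xyloglucan chain, the main hemicellulose that coats cellulose in this wall, and joins the cut end to another chain or, in some members, to water. Both families are encoded by many similar genes that differ in the tissue and stage where they are read, and petals, stamen filaments and pistils all grow by extension of such walls. REF6, ELF6 and JMJ13 are histone demethylases that take a repressive methyl mark off histone H3, and REF6 binds DNA through zinc fingers at a short motif.

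The bases just upstream of the genes show where that motif lies. The REF6 motif was read as CTCTG, then C or T, then T, then C or T, on either strand, in the 300 bases before each annotated gene start of RefSeq's TAIR10.1 assembly. It was found in 3 of 34 expansin windows (8.82%), 3 of 29 XTH windows (10.3%) and 1886 of 27443 windows of all protein-coding genes (6.87%). The expansins that hold it are EXPA4, EXPA8 and EXPA11, and the XTHs are XTH9, XTH17 and XTH18. The G-box CACGTG, bound by growth regulators of the PIF and BES1 kinds, was in 2 of 34 expansin windows (5.88%), 0 of 29 XTH windows and 1945 of 27443 of all windows (7.09%). The expansins with a G-box are EXPA2 and EXPB2, neither of which passed the filter on low counts, and no window of either family held both motifs. Windows are given here for 4 of the members with the REF6 motif, and those of XTH17 and XTH18, which have few counts, are left out. Added to them is the window of XTH22, the tested XTH furthest below WT in ref6-3 and in ref6C, which has no match. The motif is in capitals, each window reads 5′ to 3′ towards its gene, and XTH22 has no capitals. A match is a description of letters and not a bound site.
EXPA4: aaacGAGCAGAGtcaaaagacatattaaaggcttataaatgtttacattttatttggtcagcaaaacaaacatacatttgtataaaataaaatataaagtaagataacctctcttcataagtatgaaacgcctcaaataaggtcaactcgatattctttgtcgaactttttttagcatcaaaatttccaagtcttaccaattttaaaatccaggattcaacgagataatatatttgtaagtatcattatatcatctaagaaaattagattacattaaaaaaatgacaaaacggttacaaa
EXPA8: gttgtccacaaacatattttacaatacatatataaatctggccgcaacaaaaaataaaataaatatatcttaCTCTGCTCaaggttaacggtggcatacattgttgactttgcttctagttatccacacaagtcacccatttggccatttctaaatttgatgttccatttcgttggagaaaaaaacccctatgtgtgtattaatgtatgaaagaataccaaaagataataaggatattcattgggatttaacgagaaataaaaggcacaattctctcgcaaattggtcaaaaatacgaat
EXPA11: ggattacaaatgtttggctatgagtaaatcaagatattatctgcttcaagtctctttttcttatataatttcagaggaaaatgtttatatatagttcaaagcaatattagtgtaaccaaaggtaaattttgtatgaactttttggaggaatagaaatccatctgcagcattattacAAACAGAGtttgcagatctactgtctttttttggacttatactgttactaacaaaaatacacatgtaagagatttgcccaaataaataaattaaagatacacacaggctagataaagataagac
XTH9: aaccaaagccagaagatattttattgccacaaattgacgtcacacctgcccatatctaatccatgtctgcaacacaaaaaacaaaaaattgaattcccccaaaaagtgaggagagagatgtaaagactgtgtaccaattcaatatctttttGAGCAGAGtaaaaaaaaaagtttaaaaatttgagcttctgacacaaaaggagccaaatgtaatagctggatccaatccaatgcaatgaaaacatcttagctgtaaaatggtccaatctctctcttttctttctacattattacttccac
XTH22: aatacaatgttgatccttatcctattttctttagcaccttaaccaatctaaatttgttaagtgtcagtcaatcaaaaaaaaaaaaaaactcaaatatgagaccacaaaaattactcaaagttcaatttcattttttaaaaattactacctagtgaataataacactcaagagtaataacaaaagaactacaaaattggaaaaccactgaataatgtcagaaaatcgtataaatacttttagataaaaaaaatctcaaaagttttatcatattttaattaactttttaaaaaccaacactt
The EXPA4 window is chr2:16545747-16546046 on the minus strand, the EXPA8 window chr2:16950706-16951005 on the minus strand, and the EXPA11 window chr1:6999840-7000139 on the minus strand. The XTH9 window is chr4:1415317-1415616 on the plus strand and the XTH22 window chr5:23308681-23308980 on the minus strand. The motif's nearest base lay 289 bases before the start of EXPA4, 221 before EXPA8, 117 before EXPA11 and 142 before XTH9.

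Library totals lay between 26009591 and 34140165 counts. The test, edgeR's quasi-likelihood F-test, was run over the 22411 genes that passed a filter on low counts, and "called" means below 0.05 after Benjamini-Hochberg adjustment over all of them. Replicates differed little (biological coefficient of variation 2.51%), so changes of a few percent could pass the test, and changes of at least 2-fold are counted apart. REF6 stood at 32.9 ± 1.43 CPM (counts scaled to library size) in ref6-3, 36.3 ± 0.491 in ref6C, 36.9 ± 2.28 in the double mutant, 36.1 ± 1.66 in the triple mutant and 69.4 ± 1.94 in WT (SD, n = 3 each). ELF6 was at 2.53 ± 0.138 CPM in the double mutant, 8.67 ± 1.03 in the triple mutant and 61.3 ± 0.696 in WT, and JMJ13 at 9.04 ± 0.399 CPM in the triple mutant and 24.8 ± 0.535 in WT. The floral markers AP1, AP3, PI, AG and SEP3 summed to 692.2 to 957.0 CPM in all 15 libraries, and 3 root markers to 2.97 to 7.56 CPM. Nearly all of the root sum was COBL9, with group means of 3.25 to 7.44 CPM. Those of RHD6 and PHT1;1 were at most 0.0336 and 0.0724 CPM. The floral sums were lowest in the triple mutant, at 692.2 to 705.7 CPM against 931.8 to 938.3 in WT. There 4 of these 5 markers were called lower and 1 higher, against 34.4% and 32% of all genes. AP3 stood at 75.4 ± 1.37 CPM in the triple mutant and 170.5 ± 1.51 in WT. PI stood at 163.6 ± 0.82 and 264.0 ± 8.63 CPM, and AP1 at 161.7 ± 1.24 and 153.2 ± 3.16. Replicate 3 of ref6C stands apart, with 29547 genes with a count against 25055 to 25712 in the other 14 libraries, and the header of the authors' deposited table says that it was left out of their statistics.

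Markers of anther tissue also differed between the groups. The 10 mature pollen markers measured summed to 183.0 to 194.3 CPM in ref6-3, 530.3 to 546.3 in ref6C, 143.2 to 148.2 in the double mutant, 210.1 to 217.5 in the triple mutant and 643.7 to 679.8 in WT. Of these 10 markers, 10, 8, 10 and 10 were called lower than WT in the 4 mutants in that order, with none at 0. Among all tested genes 18.5%, 20.4%, 34.8% and 34.4% were called lower in the same order. The markers did not move alike in ref6C, where 3 were lower by at least 2-fold (3.34% of all genes) and 2 were not called. These 3 are STP11, BCP1 and ANX2, named for their values, which were there at 0.046, 0.185 and 0.303 CPM against 1.88, 2.65 and 2.31 in WT. STP11, BCP1 and ANX2 were as low or lower in the other mutants and passed the filter only through WT. A call below WT was therefore built in for them. They are among the markers counted as lower in all 4 mutants and carry no weight there, nor in the 2-fold count. AGP6 was at 24.4 CPM in ref6C and 21.8 in WT. The 7 tapetum and anther markers summed to 1310.5 to 1314.0 CPM in ref6-3, 921.5 to 956.4 in ref6C, 759.5 to 783.6 in the double mutant, 779.3 to 786.5 in the triple mutant and 1278.3 to 1301.8 in WT, none of them at 0. All 7 were called lower than WT in ref6C, the double mutant and the triple mutant. For ref6-3, 2 were called higher, against 16.2% of all genes, and 2 lower. The part of the pollen, tapetum and anther markers in the differences below was not tested. In whole buds, fewer cells of a type and less RNA per cell cannot be told apart.

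Of the 65 members, 40 passed the filter, 20 in each family. The other 25, 16 expansins and 9 XTHs, had 1 to 36 counts in all 15 libraries together, and the lowest tested member had 114. Among those 25 are EXPA7 and EXPA18, known from root hairs, and XTH12, XTH13 and XTH26, known from roots. They were picked as examples. Neither the tested nor the untested members were sorted by tissue, so no pattern of tissue is read from them. In ref6C replicate 3, 21 of the 25 had a count (44 counts in all), against 4 to 10 of them (6 to 27 counts) in the other 14 libraries.

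Levels between genes were compared in the deposited FPKM, fragments per kilobase scaled to library depth. A single gene, XTH9 (AT4G03210), known from shoot apices and flower buds, held 62.0% of the XTH family's summed mean FPKM, at a mean of 1014.6 FPKM over the 15 libraries. With XTH3, which can also join xyloglucan to cellulose, and XTH16, the share was 81.7%, and with XTH4, XTH6 and XTH15 it was 94.3%. The expansin family was spread more evenly. EXPA6 (AT2G28950) led at 240.1 FPKM with 31.2% of the family's sum, and EXPA6, EXPB3 and EXPA15 together held 59.2%. Adding EXPA4, EXPA1 and EXPA10 brought that share to 81.8%. A mean of at least 10 FPKM was reached by 12 expansins and 9 XTHs, and at least 1 FPKM by 18 expansins and 17 XTHs.

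**Figure D1:**
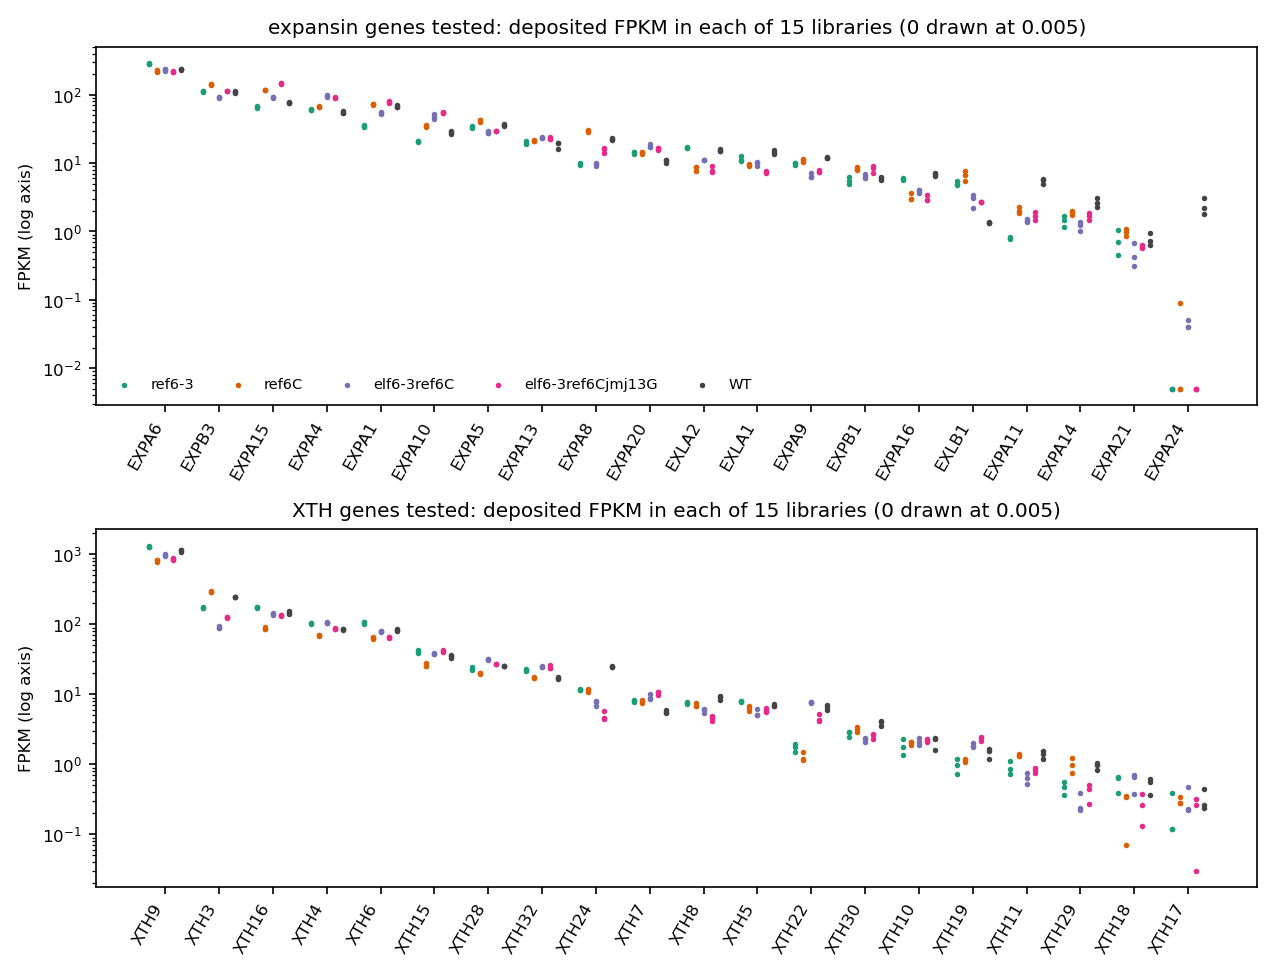
Deposited FPKM (log axis) of the 20 tested expansins (upper panel) and 20 tested XTHs (lower panel), highest mean on the left; each point is a library, coloured by genotype in the order ref6-3, ref6C, the double mutant, the triple mutant, WT, and a value of 0 is drawn at 0.005. XTH9 lies above every other gene shown in every library, and EXPA24 has WT points above 1 FPKM and mutant points below 0.1 FPKM.

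Summed over a family, the genotypes fell in a different order for expansins and for XTHs. All expansins together reached 716.6 ± 1.34 FPKM in ref6-3, 819.0 ± 14.2 in ref6C, 740.1 ± 2.35 in the double mutant, 832.1 ± 2.87 in the triple mutant and 734.5 ± 9.46 in WT (SD, n = 3 each). All XTHs together reached 1983.9 ± 40.1 FPKM in ref6-3, 1436.3 ± 30.2 in ref6C, 1541.2 ± 32.8 in the double mutant, 1403.6 ± 22.8 in the triple mutant and 1823.5 ± 52.3 in WT. The ref6C and triple mutant libraries thus lay above every WT library in expansin sum and below every WT library in XTH sum, while the double mutant libraries overlapped WT in expansin sum. In ref6-3 the direction was the other way, with XTH sums of 1955.3 to 2029.8 FPKM against 1764.7 to 1865.0 in WT and expansin sums of 715.1 to 717.5 against 726.8 to 745.0. XTH9 set much of the XTH sum. Without it the other XTHs summed to 686.8 ± 6.85 FPKM in ref6-3, 624.7 ± 11.6 in ref6C, 556.0 ± 0.8 in the double mutant, 546.3 ± 3.29 in the triple mutant and 701.7 ± 5.59 in WT, so that every ref6-3 library then lay below every WT library. Without EXPA6 the other expansins summed to 431.0 ± 5.38 FPKM in ref6-3, 595.8 ± 10.2 in ref6C, 506.0 ± 6.54 in the double mutant, 612.2 ± 2.15 in the triple mutant and 497.0 ± 9.34 in WT. With 3 libraries against 3, an exact permutation test cannot go below 0.10, so these sums are given with their spread and no test.

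**Figure D2:**
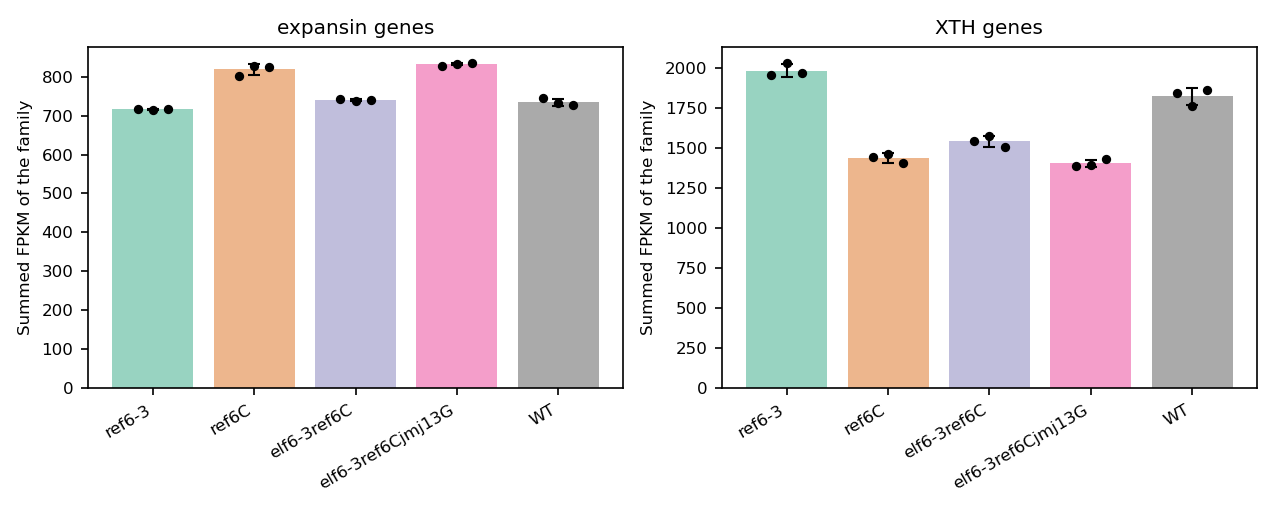
Summed deposited FPKM of all 36 expansins (left) and all 29 XTHs (right) by genotype, with WT on the right; bars are means, error bars the SD of 3 libraries, and points the libraries. Expansin sums are highest in ref6C and the triple mutant, and XTH sums are lowest in the same genotypes and highest in ref6-3.

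In ref6-3 buds, the alpha-expansins EXPA1, EXPA8, EXPA10, EXPA11 and EXPA15 fell, while EXPA6, EXPA4 and EXPA20 rose. Of the 6 most abundant XTHs, XTH9, XTH16, XTH4, XTH6 and XTH15 rose and XTH3 fell. Of the 20 tested expansins 4 rose and 10 fell relative to WT, and of the 20 tested XTHs 7 rose and 9 fell, 75.0% of the 40 together. Over all tested genes 34.7% were called (16.2% higher, 18.5% lower), and the difference from that share was not tested. The median log2 fold change was -0.16 for the expansins and -0.15 for the XTHs, against 0.0 for all genes. Past 2-fold, EXLB1 was higher, and EXPA8, EXPA11 and EXPA24 and the XTHs XTH22, XTH24 and XTH29 were lower, against 0.678% and 4.99% of all genes past 2-fold higher and lower. EXPA24 and XTH29 are too low for the naming rule and are named for their values. EXPA24 is the lowest expansin at its fitted value and at its bound given below, so the medians do not depend on it. It passed the filter only through its WT libraries, so a call below WT was built in. EXPA24 is nevertheless among the lower expansins, and those past 2-fold, counted in all 4 comparisons with WT, and it carries no weight there.

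In ref6C buds the families leaned opposite ways. Of the 20 expansins 11 rose and 7 fell, with a median log2 fold change of 0.21, and of the 20 XTHs 2 rose and 10 fell, with a median of -0.31; the median of all genes was 0.0. Over all genes 38.8% were called (18.4% higher, 20.4% lower). Without ref6C replicate 3, 10 expansins rose and 5 fell, and the XTH counts were the same. Past 2-fold, EXLB1 was higher and EXPA11, EXPA16, EXPA24, XTH22 and XTH24 were lower (1.2% and 3.34% of all genes).

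In double mutant buds 6 expansins rose and 11 fell (median -0.31), and 6 XTHs rose and 8 fell (median -0.03). So many genes were called in this comparison (68.5%, with 33.7% higher and 34.8% lower) that the 77.5% of members called lay close to the background. Past 2-fold, EXLB1 was higher, and EXPA8, EXPA11, EXPA14, EXPA24, XTH3, XTH11, XTH24 and XTH29 were lower, against 3.76% and 9.93% of all genes; XTH11 is also low and is named for its value.

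In triple mutant buds 8 expansins rose and 10 fell (median -0.18), and 5 XTHs rose and 12 fell (median -0.36), while the median of all genes was -0.01. Over all genes 66.4% were called (32% higher, 34.4% lower), against 87.5% of the members. Past 2-fold, EXLB1 was higher and EXPA11, EXPA16, EXPA24, XTH24 and XTH29 were lower, against 3% and 10.1% of all genes. These 4 comparisons share the WT libraries, so their directions are not independent of each other.

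**Figure D3:**
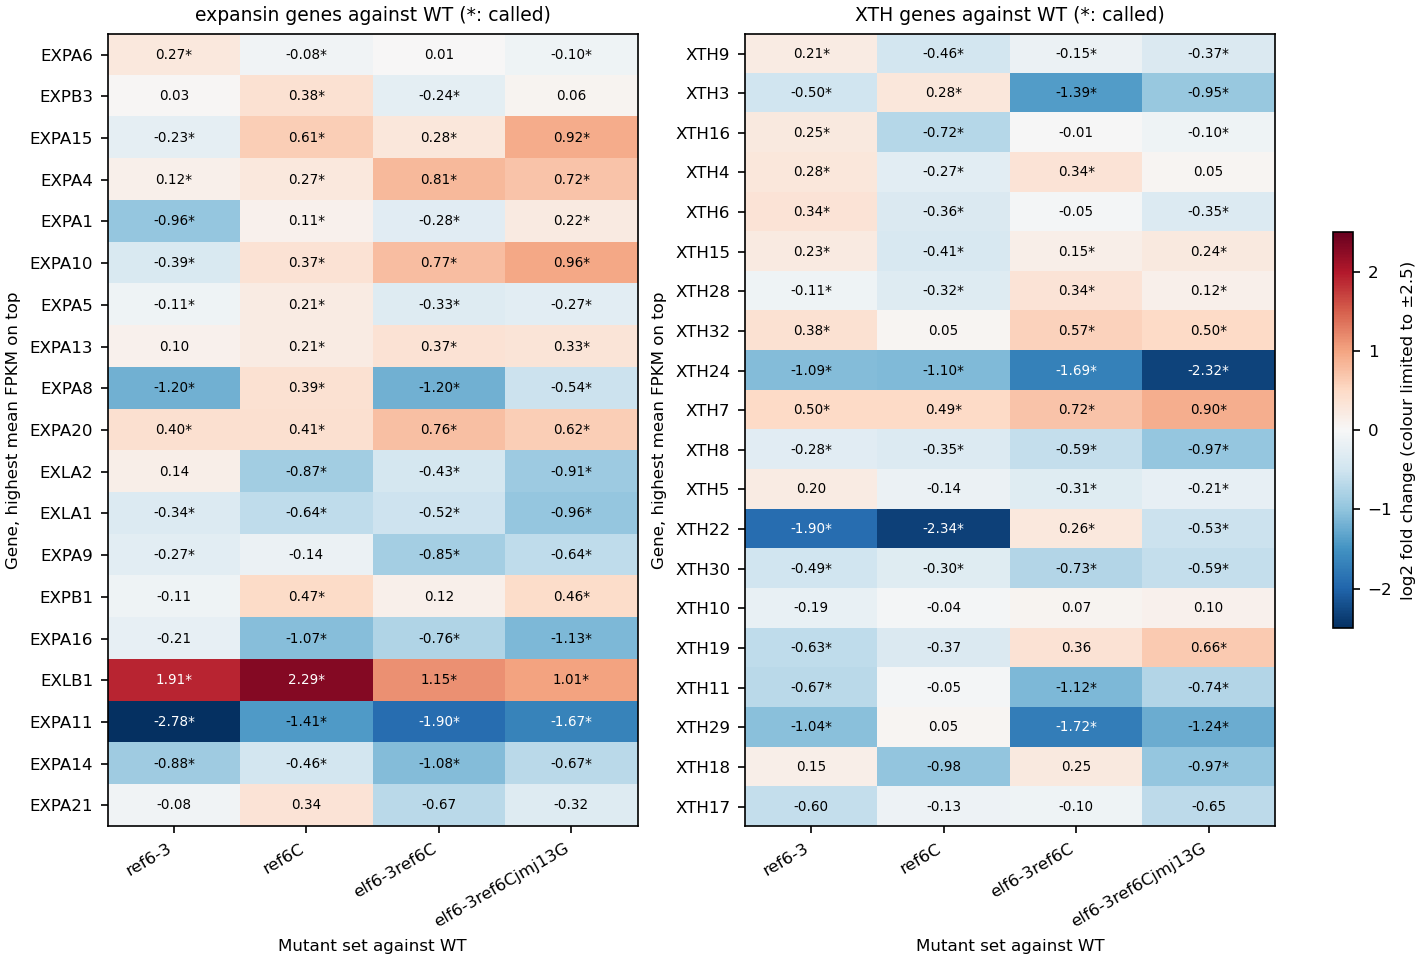
Log2 fold change of 19 tested expansins (left) and 20 tested XTHs (right) in each mutant set against WT, rows ordered by mean FPKM; an asterisk marks an adjusted p below 0.05, colour is limited to 2.5 either way, and EXPA24 is left out because 2 mutants have no count. EXLB1, EXPA20, EXPA4 and XTH7 are red with an asterisk in all 4 columns, and EXPA11, EXPA14, EXLA1, XTH24, XTH8 and XTH30 blue with an asterisk in all 4.

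Among the abundant alpha-expansins, EXPA15 (AT2G03090) rose in 3 of the 4 mutants. It had 84.3, 82.0 and 87.0 CPM in ref6-3, 149, 150 and 153 in ref6C, 123, 120.1 and 118 in the double mutant, and 189.5, 189.6 and 184 in the triple mutant, against 102, 97.6 and 97.5 in WT. No mutant library overlapped WT: ref6-3 lay below it and the other mutants above. The log2 fold changes were -0.23 ± 0.03 in ref6-3 (SE; adjusted p = 6.80e-07), 0.61 ± 0.03 in ref6C (8.84e-16), 0.28 ± 0.03 in the double mutant (1.89e-09) and 0.92 ± 0.03 in the triple mutant (1.10e-20). EXPA10 (AT1G26770), known from leaf and petiole growth, followed the same signs. It had 22.3, 23.1 and 23.2 CPM in ref6-3, 37.3, 39.6 and 39.4 in ref6C, 50.1, 48.4 and 54.4 in the double mutant, and 55.8, 57.9 and 60.2 in the triple mutant, against 30.8, 31.1 and 27.5 in WT. Its log2 fold changes were -0.39 ± 0.05, 0.37 ± 0.05, 0.77 ± 0.05 and 0.96 ± 0.05 in that order, all called, and the triple mutant stood at 194.4% of WT.

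EXPA4 (AT2G39700), which has the REF6 motif in its window above, rose in every mutant. It had 76.3, 77.2 and 76.0 CPM in ref6-3, 85.1, 82.9 and 87.3 in ref6C, 122, 119.8 and 127 in the double mutant, and 117, 115 and 116 in the triple mutant, against 73.8, 69.1 and 68.3 in WT. The log2 fold changes were 0.12 ± 0.03 in ref6-3, 0.27 ± 0.03 in ref6C, 0.81 ± 0.03 in the double mutant and 0.72 ± 0.03 in the triple mutant. EXPA20 (AT4G38210) was called higher in the same 4 mutants, at 15.2 ± 0.684, 15.3 ± 0.784, 19.3 ± 1.2 and 17.6 ± 0.680 CPM in that order against 11.5 ± 0.620 CPM in WT; it overlaps a gene on the other strand, and the sources used here do not say whether counting used strand. EXPA6, the most abundant expansin, rose in ref6-3 and moved little in the other mutants. It had 368, 377 and 372 CPM in ref6-3, 286, 301.3 and 289.6 in ref6C, 319, 314 and 303 in the double mutant, and 287, 286 and 294 in the triple mutant, against 312, 306 and 309 in WT. Its log2 fold change was 0.27 ± 0.03 in ref6-3 (adjusted p = 2.40e-09), -0.08 ± 0.03 in ref6C (0.0166), 0.01 ± 0.03 in the double mutant (0.663) and -0.10 ± 0.03 in the triple mutant (0.00175). The ref6C call was lost without WT replicate 1 (adjusted p = 0.0505), ref6C replicate 1 (0.0801) or ref6C replicate 3 (0.0656).

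EXPA1 and EXPA8 were below WT in ref6-3 but not in ref6C. EXPA1 (AT1G69530), an auxin-responsive expansin also known from guard cells, had 44.3, 42.5 and 41.5 CPM in ref6-3, 87.3, 90.7 and 92.2 in ref6C, 66.7, 70.9 and 68.3 in the double mutant, and 95.6, 98.9 and 97.3 in the triple mutant, against 81.4, 87.8 and 80.2 in WT. The ref6-3 and double mutant libraries lay below WT, those of the triple mutant above it, and those of ref6C overlapped it. The log2 fold change was -0.96 ± 0.04 in ref6-3 (adjusted p = 1.73e-17), 0.11 ± 0.03 in ref6C (0.00998), -0.28 ± 0.04 in the double mutant (9.44e-08) and 0.22 ± 0.03 in the triple mutant (1.58e-06). The ref6C call was lost without WT replicate 3 (0.0698) or ref6C replicate 3 (0.0513). EXPA8 (AT2G40610), a brassinosteroid-responsive expansin with the REF6 motif in its window, had 9.81, 10.03 and 10.3 CPM in ref6-3, 29.4, 30.5 and 31.1 in ref6C, 10.1, 9.40 and 10.7 in the double mutant, and 14.3, 16.6 and 17.0 in the triple mutant, against 22.7, 23.4 and 23.3 in WT. It was at 43.5% of WT in ref6-3 and in the double mutant (log2 fold change -1.20 ± 0.06 in both), at 131.1% in ref6C (0.39 ± 0.05) and at 69.0% in the triple mutant (-0.54 ± 0.05).

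EXPA11 (AT1G20190), the third expansin with the motif, fell in every mutant. It had 0.823, 0.862 and 0.840 CPM in ref6-3, 2.01, 2.40 and 2.14 in ref6C, 1.48, 1.52 and 1.64 in the double mutant, and 1.77, 1.58 and 2.09 in the triple mutant, against 6.21, 5.35 and 5.85 in WT. The level was 14.5% of WT in ref6-3, 37.6% in ref6C, 26.7% in the double mutant and 31.2% in the triple mutant, and the log2 fold changes were -2.78 ± 0.14 (adjusted p = 7.92e-15), -1.41 ± 0.12 (2.41e-10), -1.90 ± 0.13 (3.75e-13) and -1.67 ± 0.12 (2.85e-12). EXPA4 and EXPA11, both motif holders, moved in opposite directions in all 4 mutants, and the part of the motif in this was not tested. EXPA16 (AT3G55500) was at 6.06 ± 0.251 CPM in ref6-3, 3.33 ± 0.413 in ref6C, 4.15 ± 0.227 in the double mutant, 3.18 ± 0.307 in the triple mutant and 6.99 ± 0.262 in WT, and it was called lower in all but ref6-3 (adjusted p = 0.0807 there). EXPA14 (AT5G56320) was at 1.61 ± 0.289, 2.16 ± 0.149, 1.39 ± 0.201 and 1.87 ± 0.218 CPM in the same order of mutants against 2.96 ± 0.450 in WT, called lower in each. The ref6C call of EXPA14 was lost under DESeq2 (0.0603) and without WT replicate 1 (0.109) or ref6C replicate 3 (0.0536). EXPA9 (AT5G02260) was called lower in ref6-3 (log2 fold change -0.27), the double mutant (-0.85) and the triple mutant (-0.64), at 11.6 CPM, 7.77 ± 0.645 CPM and 8.97 ± 0.340 CPM in that order. EXPA13 (AT3G03220) was at 26.2 ± 0.791 CPM in the double mutant, or 128.7% of the 20.4 ± 2.21 CPM in WT (adjusted p = 1.54e-06).

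EXPA24 and EXPB5 stood out for having almost no counts outside WT, and both were picked after their values were seen. EXPA24 (AT5G39310) had 0 counts in every ref6-3 and triple mutant library, 0, 0 and 2 counts in ref6C and 1, 1 and 1 in the double mutant, against 43, 62 and 68 counts in WT. It passed the filter through the WT libraries. With 3 counts over the group as the floor, it was at least 51.7-fold lower in ref6-3 and at least 56.7-fold lower in the triple mutant, where the floor covers counting error only. It lies in a run of alpha-expansin genes on chromosome 5 (EXPA21 to EXPA26); none of its exonic 50-base windows is found elsewhere in the genome, whereas 34% to 54.5% of those of EXPA22, EXPA23, EXPA25 and EXPA26 are. EXPB5 (AT3G60570), which did not pass the filter, had 0 counts in all 12 mutant libraries and 8, 11 and 8 counts in WT. Its level was at least 8.07-fold lower in ref6-3, 8.52-fold in ref6C, 8.36-fold in the double mutant and 8.85-fold in the triple mutant; 15.5% of its windows are found elsewhere.

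The beta-expansin EXPB3 (AT4G28250) was second among expansins by mean FPKM over all libraries; EXPA15 was above it in the triple mutant (146.1 ± 3.11 against 114.6 ± 0.144 FPKM), and in the double mutant EXPB3 (91.7 ± 1.70), EXPA15 (92.3 ± 1.81) and EXPA4 (95.7 ± 2.83) lay close together. It had 144, 137 and 141 CPM in ref6-3, 178, 183 and 180.3 in ref6C, 117, 119 and 115 in the double mutant, and 143, 143 and 144 in the triple mutant, against 141, 139.8 and 133 in WT. It rose in ref6C (log2 fold change 0.38 ± 0.03, adjusted p = 4.91e-12) and fell in the double mutant (-0.24 ± 0.03, 1.56e-08). In ref6-3 the difference was 0.03 ± 0.03 (0.512). In the triple mutant it was 0.06 ± 0.03 (0.0656), which passed the threshold under DESeq2 (0.0359), with the other scaling (0.0380) and without WT replicate 1 (0.0407), ref6-3 replicate 3 (0.0303) or ref6C replicate 3 (0.0298). EXPB1 (AT2G20750) rose in ref6C to 8.85 ± 0.363 CPM and in the triple mutant to 8.80 ± 1.06, against 6.38 ± 0.434 in WT. These were the 2 beta-expansins tested of 6.

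The expansin-like genes, whose proteins have the expansin fold but no shown loosening activity, were tested for EXLB1, EXLA1 and EXLA2. EXLB1 (AT4G17030) had 4.94, 4.93 and 5.57 CPM in ref6-3, 7.80, 6.76 and 5.58 in ref6C, 3.24, 2.30 and 3.52 in the double mutant, and 2.78, 2.72 and 2.78 in the triple mutant, against 1.38, 1.37 and 1.34 in WT. Every mutant library lay above every WT library. The level was 376.6% of WT in ref6-3 (log2 fold change 1.91 ± 0.15), 491.0% in ref6C (2.29 ± 0.15), 221.0% in the double mutant (1.15 ± 0.17) and 201.8% in the triple mutant (1.01 ± 0.17), with adjusted p from 7.26e-13 to 7.72e-06. EXLA1 (AT3G45970) was at 10.5 ± 0.850 CPM in ref6-3, 8.49 ± 0.297 in ref6C, 9.24 ± 0.678 in the double mutant and 6.81 ± 0.268 in the triple mutant against 13.2 ± 0.790 in WT, and was called lower in each; it overlaps a gene on the other strand. EXLA2 (AT4G38400) was at 17.3 ± 0.561 CPM in ref6-3 (adjusted p = 0.0942), 8.60 ± 0.606 in ref6C, 11.7 ± 0.135 in the double mutant and 8.30 ± 1.10 in the triple mutant against 15.7 ± 0.672 in WT, called lower in the last 3 of these mutants.

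Among the XTHs, XTH9 had 1270.2, 1326 and 1274 CPM in ref6-3, 821, 824 and 786 in ref6C, 1004, 1029.7 and 968 in the double mutant, and 839, 843 and 891 in the triple mutant, against 1129, 1067 and 1141 in WT. The ref6-3 libraries lay above WT and those of the other 3 mutants below it. The log2 fold change was 0.21 ± 0.03 in ref6-3 (adjusted p = 1.98e-06), -0.46 ± 0.03 in ref6C (1.60e-12), -0.15 ± 0.03 in the double mutant (7.00e-05) and -0.37 ± 0.03 in the triple mutant (1.92e-11). XTH6 (AT5G65730) was at 109 ± 3.04 CPM in ref6-3, 67.0 ± 2.00 in ref6C, 83.3 ± 1.17 in the double mutant, 67.5 ± 1.07 in the triple mutant and 86.3 ± 1.47 in WT, and the double mutant difference was not called (adjusted p = 0.141). XTH16 (AT3G23730) had 169, 174 and 176 CPM in ref6-3, 86.4, 91.1 and 87.0 in ref6C, 140.2, 144 and 148 in the double mutant, and 137, 132 and 138 in the triple mutant, against 146, 139 and 150.4 in WT. It rose in ref6-3 (0.25 ± 0.03) and fell in ref6C (-0.72 ± 0.03, adjusted p = 4.19e-16). In the double mutant the difference was -0.01 ± 0.03 (0.742), and the small fall in the triple mutant (-0.10 ± 0.03, 0.00755) was lost without WT replicate 3 (0.0616) or triple mutant replicate 2 (0.0521). XTH4 (AT2G06850), an XTH of stem and fibre walls, was at 117 ± 2.24 CPM in ref6-3, 79.8 ± 1.74 in ref6C, 122 ± 2.08 in the double mutant and 99.5 ± 1.37 in the triple mutant (adjusted p = 0.136) against 96.3 ± 1.38 in WT. XTH15 (AT4G14130) was at 40.6 ± 2.16, 25.9 ± 1.58, 38.4 ± 0.969 and 41.0 ± 1.39 CPM in the same order against 34.5 ± 2.07 in WT; it overlaps a gene on the other strand, and its double mutant call was lost without WT replicate 3 (0.0589).

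XTH3 (AT3G25050) was second among XTHs by mean FPKM over all libraries, but in the double mutant it was at 91.6 ± 2.87 FPKM against 141.5 ± 3.45 for XTH16. It had 175, 176 and 175 CPM in ref6-3, 298, 305 and 296 in ref6C, 93.0, 98.0 and 93.2 in the double mutant, and 128, 132 and 126 in the triple mutant, against 247, 250.2 and 246 in WT. No mutant library overlapped WT. The log2 fold change was -0.50 ± 0.03 in ref6-3 (adjusted p = 8.01e-15), 0.28 ± 0.02 in ref6C (8.34e-10), -1.39 ± 0.03 in the double mutant (8.40e-25) and -0.95 ± 0.03 in the triple mutant (2.07e-21). As for EXPA8, ref6C lay above WT and the other mutants below it.

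XTH24 and XTH22 fell furthest in some of the mutants. XTH24 (AT4G30270), once called MERI-5 for its message in meristems, had 13.1, 13.2 and 13.2 CPM in ref6-3, 13.1, 13.7 and 12.4 in ref6C, 8.82, 9.33 and 7.93 in the double mutant, and 6.51, 5.14 and 5.12 in the triple mutant, against 27.5, 27.9 and 28.6 in WT. It fell to 46.9% of WT in ref6-3, 46.7% in ref6C, 31.0% in the double mutant and 20.0% in the triple mutant, with log2 fold changes of -1.09 ± 0.06, -1.10 ± 0.06, -1.69 ± 0.06 and -2.32 ± 0.07. Its neighbours on chromosome 4 are low and are given for their place. XTH19 was called lower in ref6-3 (1.01 ± 0.239 CPM against 1.54 ± 0.269 in WT, adjusted p = 0.0116), with overlapping libraries. It was called higher in the triple mutant (2.45 ± 0.157 CPM, 6.99e-04), where the libraries did not overlap WT. XTH18 was called lower in the triple mutant (0.249 CPM against 0.491 in WT, adjusted p = 0.0479) with overlapping libraries. XTH22 (AT5G57560, also TCH4), induced by touch and brassinosteroid, had 1.95, 1.76 and 1.49 CPM in ref6-3, 1.5, 1.18 and 1.16 in ref6C, 7.85, 7.69 and 7.78 in the double mutant, and 4.26, 5.17 and 4.09 in the triple mutant, against 6.58, 7.08 and 5.78 in WT. It fell to 26.7% of WT in ref6-3 (log2 fold change -1.90 ± 0.13), 19.8% in ref6C (-2.34 ± 0.13) and 69.6% in the triple mutant (-0.53 ± 0.11), and no library of these mutants overlapped WT. In the double mutant it was 0.26 ± 0.10 above WT (adjusted p = 0.0233), a call lost under DESeq2 (0.0591) and without WT replicate 3 (0.129), double mutant replicate 1 (0.0519) or double mutant replicate 3 (0.0521).

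Smaller XTH changes went one way in all mutants for 3 further genes. XTH7 (AT4G37800) was at 8.52 ± 0.272 CPM in ref6-3, 8.45 ± 0.496 in ref6C, 9.90 ± 0.926 in the double mutant and 11.2 ± 0.779 in the triple mutant against 5.98 ± 0.370 in WT, called higher in each. XTH8 (AT1G11545) was at 7.83 ± 0.269, 7.42 ± 0.509, 6.3 ± 0.402 and 4.83 ± 0.397 CPM in that order against 9.45 ± 0.709 in WT. XTH30 (AT1G32170) was at 3.35 ± 0.292, 3.84 ± 0.344, 2.83 ± 0.203 and 3.11 ± 0.284 CPM against 4.70 ± 0.430 in WT, and both were called lower in each mutant. XTH28 (AT1G14720), known from stamen filament growth, was at 40.5 ± 0.370 CPM in the double mutant and 34.7 ± 0.471 in the triple mutant, both called higher, and at 29.6 ± 1.24 in ref6-3 and 25.6 ± 0.364 in ref6C, both called lower, against 32.0 ± 0.420 in WT. XTH32 (AT2G36870) was higher in ref6-3 (23.7 ± 0.746 CPM), the double mutant (27.0 ± 0.911) and the triple mutant (25.8 ± 0.535) than in WT (18.2 ± 0.356), while ref6C, at 18.8 ± 0.217, was not called. XTH5 (AT5G13870) fell in the double mutant to 7.30 ± 0.885 CPM and in the triple mutant to 7.82 ± 0.583, against 9.05 ± 0.334 in WT.

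**Figure D4:**
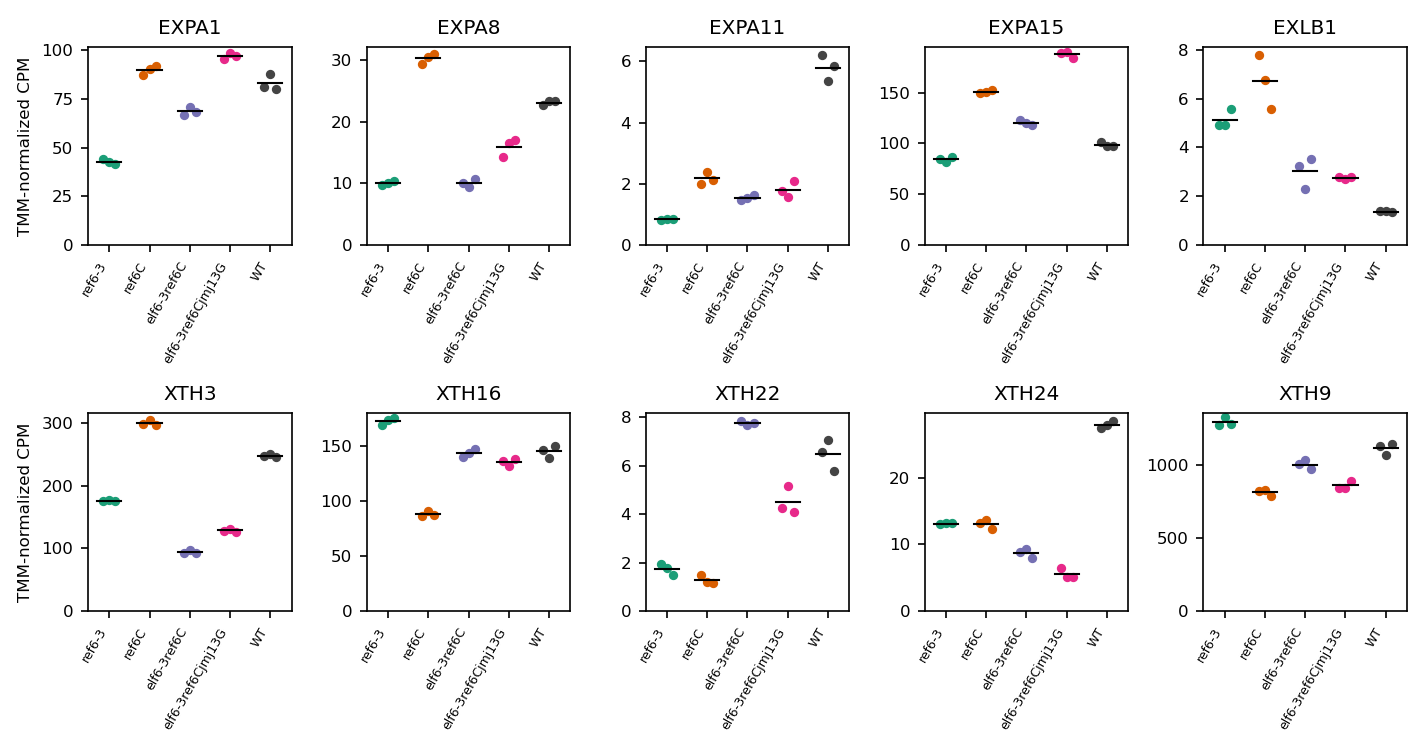
TMM-normalized CPM (linear axes from 0) of 5 expansins (upper row) and 5 XTHs (lower row) in each library, grouped by genotype with WT on the right; points are libraries and lines group means. EXPA8 and XTH3 are highest in ref6C, EXLB1 is above WT in every mutant, and XTH22 is above its WT level in the double mutant and far below it in ref6-3 and ref6C.

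The single REF6 mutants were then set against each other. Relative to ref6-3, 10 expansins were higher in ref6C and 4 lower (median log2 fold change 0.37), and 3 XTHs were higher and 9 lower (median -0.14); 33.9% of all genes were called (17.2% higher, 16.8% lower), with a median of 0.0. Past 2-fold, EXPA1, EXPA8, EXPA11 and XTH29 were higher in ref6C and EXLA2 and XTH18 lower, against 3.49% and 0.991% of all genes; XTH29 and XTH18 are low and are named for their values. EXPA8 had 30.3 ± 0.872 CPM in ref6C and 10.1 ± 0.272 in ref6-3, a log2 fold change of 1.59 ± 0.06 (adjusted p = 3.74e-18). EXPA11 followed at 1.37 ± 0.17 (2.43e-07) and EXPA1 at 1.07 ± 0.04 (1.38e-18). XTH3 was also higher in ref6C, by 0.77 ± 0.03. EXLA2 was lower in ref6C by -1.01 ± 0.07 (6.54e-12), EXPA16 by -0.87 ± 0.10 and EXPA6 by -0.35 ± 0.03. Of the other XTHs among the 6 most abundant, XTH16 was lower by -0.97 ± 0.03 (3.29e-19), XTH6 by -0.70 ± 0.03 and XTH9 by -0.67 ± 0.03. For XTH24 no difference was detectable, with 13.1 ± 0.653 CPM in ref6C and 13.1 ± 0.0761 in ref6-3 (-0.01 ± 0.07, 0.954). Beside these, 7 of 10 mature pollen markers were higher in ref6C than in ref6-3 and 7 of 7 tapetum and anther markers lower.

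The double mutant was set against ref6C, from which its labels differ by elf6-3. Relative to ref6C, 7 expansins were higher in the double mutant and 11 lower (median -0.34), and 11 XTHs were higher and 6 lower (median 0.26); 61.2% of all genes were called (30.7% higher, 30.6% lower). Past 2-fold, XTH18 and XTH22 were higher and EXPA8, EXPA21, EXLB1, XTH3, XTH11 and XTH29 lower, against 3.31% and 5.7% of all genes. XTH18, EXPA21, XTH11 and XTH29 are below the level set for naming and are named for their values. XTH22 had 7.77 ± 0.0766 CPM in the double mutant and 1.28 ± 0.190 in ref6C, or 607.2% (log2 fold change 2.60 ± 0.13, adjusted p = 1.16e-15). XTH16 (0.71 ± 0.03) and XTH28 (0.66 ± 0.04) were higher as well. XTH3 had 94.7 ± 2.80 CPM in the double mutant and 299.6 ± 4.89 in ref6C (-1.66 ± 0.03, 3.24e-26). EXPA8 had 10.1 ± 0.640 CPM in the double mutant and 30.3 ± 0.872 in ref6C (-1.59 ± 0.06, 8.92e-19), and EXLB1 3.02 ± 0.636 in the double mutant and 6.71 ± 1.11 in ref6C (-1.14 ± 0.13, 1.51e-08). EXPA9 was lower by -0.71 ± 0.07, XTH24 by -0.60 ± 0.07 and XTH30 by -0.44 ± 0.12. EXPA4 (0.53 ± 0.03), EXLA2 (0.44 ± 0.08) and EXPA10 (0.40 ± 0.05) were higher. In the same comparison 8 of 10 mature pollen markers and 6 of 7 tapetum and anther markers were lower.

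The triple mutant was set against the double mutant, from which its labels differ by jmj13G. JMJ13 was at 9.04 ± 0.399 CPM in the triple mutant and 18.3 ± 0.460 in the double mutant. The groups also differed in ELF6, at 8.67 ± 1.03 CPM in the triple mutant and 2.53 ± 0.138 in the double mutant. The part of ELF6 in the differences below was not tested. Relative to the double mutant, 7 expansins were higher in the triple mutant and 5 lower (median 0.12), and 1 XTH was higher and 8 lower (median -0.08); 20% of all genes were called (8.58% higher, 11.4% lower). None of the expansins and 1 XTH, XTH18, passed 2-fold (XTH18, lower), against 0.419% of all genes higher and 0.879% lower by that much. EXPA8 (0.66 ± 0.06, adjusted p = 9.67e-09), EXPA15 (0.64 ± 0.03, 6.62e-16) and EXPA1 (0.50 ± 0.03, 1.34e-11) were the expansins furthest above the double mutant, and XTH3 was the one XTH above it (0.44 ± 0.03, 3.24e-12). XTH22 (-0.79 ± 0.10, 1.81e-06), XTH24 (-0.63 ± 0.09, 2.85e-06) and XTH8 (-0.37 ± 0.09) were lower, as were EXLA2 (-0.49 ± 0.08) and EXLA1 (-0.44 ± 0.08). EXPA16 was at -0.38 ± 0.11 (0.0138), a call lost under DESeq2 (0.0547) and without triple mutant replicate 2 (0.0535) or replicate 3 (0.0630). The count of lower expansins was 3 under DESeq2 and without triple mutant replicate 2 or replicate 3. That of higher XTHs was 2 when only these groups were fitted and without double mutant replicate 1 or triple mutant replicate 1. Of 10 mature pollen markers 4 were higher and none of 7 tapetum and anther markers was called.

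**Figure D5:**
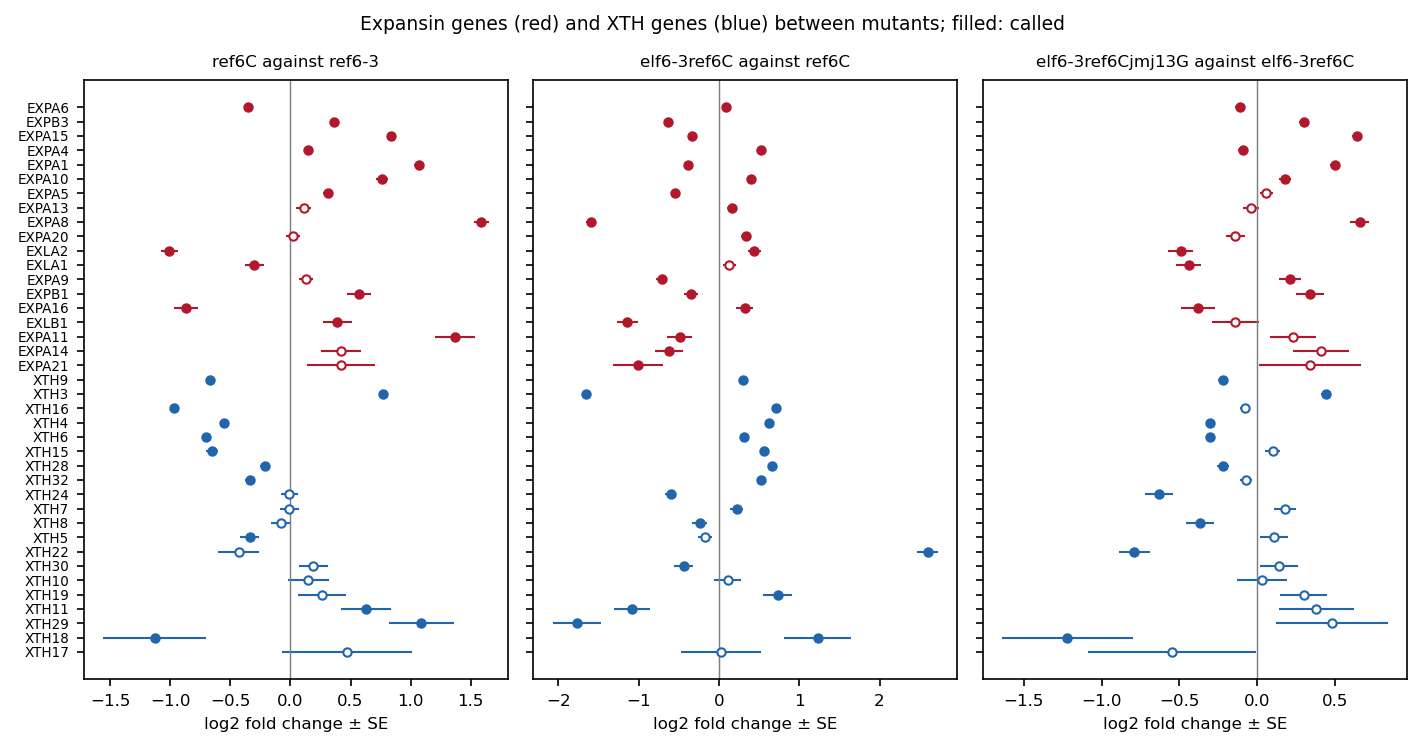
Log2 fold change (points) with its SE (bars) of 19 expansins (red) and 20 XTHs (blue) in ref6C against ref6-3 (left), the double mutant against ref6C (middle) and the triple against the double mutant (right), with filled points called; EXPA24 is left out for its near-zero counts, and the axes differ in range. EXPA8 lies at 1.59 in the first panel and -1.59 in the second, XTH3 at 0.77 and -1.66, and XTH22 lies at 2.60 in the second.

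Among the other wall genes, of 11 xyloglucan synthesis genes matched, 0, 1, 1 and 1 were higher and 6, 4, 6 and 6 lower than WT in ref6-3, ref6C, the double mutant and the triple mutant, and none reached 2-fold. Their median log2 fold changes were -0.10, -0.03, -0.09 and -0.10, and the shares of all genes called were those given above, 34.7%, 38.8%, 68.5% and 66.4% in the same order, against which the 7 of 11 called in the double and in the triple mutant lay close to the background. The glucan synthase genes CSLC12 and CSLC4 were among those lower in each: CSLC12 stood at 17.5 ± 0.570 CPM in ref6-3, 21.8 ± 1.12 in ref6C, 14.1 ± 0.994 in the double mutant and 15.2 ± 0.342 in the triple mutant against 24.5 ± 0.514 in WT, and CSLC4 at 28.7 ± 1.0, 25.0 ± 0.572, 27.0 ± 1.10 and 27.0 ± 0.975 CPM in that order against 37.5 ± 0.963 in WT. The galactosyltransferase gene MUR3 stood at 33.2 ± 0.547 CPM in ref6-3, 37.1 ± 0.602 in ref6C, 32.8 ± 1.05 in the double mutant and 32.6 ± 0.915 in the triple mutant against 37.9 ± 1.21 in WT, called lower in all but ref6C. XLT2, another galactosyltransferase, was higher in ref6C (38.0 ± 1.32 CPM) and lower in the double mutant (24.5 ± 0.641) than in WT (30.8 ± 2.11). The xylosyltransferase gene XXT2 was called lower in each mutant, with log2 fold changes of -0.09, -0.11, -0.09 and -0.09 in the same order. Of the 3 genes that trim xyloglucan, XYL1, an alpha-xylosidase, rose to 871.7 ± 28.1 CPM in ref6C, 937.0 ± 22.9 in the double mutant and 965.5 ± 9.87 in the triple mutant, against 769.3 ± 38.1 in WT. AXY8, a fucosidase, was called higher in ref6-3 (68.1 ± 0.5 CPM) and the double mutant (70.2 ± 3.36) and lower in ref6C (58.7 ± 2.38) than WT (63.9 ± 1.17). BGAL10, a galactosidase, was called lower in ref6C (89.5 ± 1.48 CPM) and higher in the double mutant (99.6 ± 1.56) than WT (94.0 ± 2.84).

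Of 10 genes for cellulose synthesis in the primary wall, none was higher and 4, 6, 4 and 4 were lower than WT in the 4 mutants in the same order, with medians of -0.06, -0.08, -0.05 and -0.05. Of all genes 34.7% and 38.8% were called in ref6-3 and ref6C. Against 68.5% and 66.4% of all genes called in the double and triple mutants, 4 of 10 was below the background share. No difference from these shares was tested. CESA9, a cellulose synthase, was at 8.70 ± 0.411 CPM in ref6-3, 10.2 ± 1.31 in ref6C, 6.19 ± 0.338 in the double mutant and 8.12 ± 0.0853 in the triple mutant against 12.4 ± 0.535 in WT. CTL1, a chitinase-like protein needed for cellulose, was at 407.5 ± 3.02 CPM in ref6-3, 396.9 ± 2.13 in ref6C, 327.4 ± 6.29 in the double mutant and 318.3 ± 7.23 in the triple mutant against 426.1 ± 7.82 in WT, and CESA3 at 298.0 ± 4.46, 299.4 ± 10.5, 293.2 ± 4.94 and 291.1 ± 11.7 CPM in the same order of mutants against 319.6 ± 8.48 in WT, both called lower in each mutant. KOR1, an endoglucanase, was called lower in ref6-3 (194.9 ± 3.02 CPM) and ref6C (196.3 ± 4.30) than in WT (207.7 ± 2.11). All 4 secondary-wall genes were lower in ref6-3, ref6C and the double mutant, and 3 of 4 in the triple mutant. Among all genes 18.5%, 20.4%, 34.8% and 34.4% were called lower in the 4 mutants in that order. The difference from those shares was not tested. The secondary-wall cellulose synthase CESA4 was at 28.4 ± 0.823 CPM in ref6-3, 46.4 ± 1.54 in ref6C, 31.1 ± 0.374 in the double mutant and 41.9 ± 0.380 in the triple mutant against 54.7 ± 2.15 in WT. CESA8 was at 17.2 ± 0.244, 25.1 ± 0.489, 19.3 ± 0.0196 and 26.5 ± 0.599 CPM in that order against 30.9 ± 0.968 in WT. COBL4, a wall protein of the same tissues, was at 7.48 ± 0.236, 11.1 ± 0.370, 8.12 ± 0.535 and 10.3 ± 0.735 CPM in the same order of mutants against 12.9 ± 0.598 in WT, and CESA7 at 15.3 ± 0.884, 22.5 ± 0.747, 19.0 ± 1.10 and 25.4 ± 2.05 CPM in the same order of mutants against 25.8 ± 1.86 in WT. The difference not called was that of CESA7 in the triple mutant (adjusted p = 0.636).

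Of 14 regulators of cell expansion, 3, 5, 6 and 6 were higher and 5, 4, 4 and 3 lower than WT in ref6-3, ref6C, the double mutant and the triple mutant, with medians of 0.0, 0.08, 0.07 and 0.01. The 10 and 9 of 14 called in the double and triple mutants lay close to the background of 68.5% and 66.4%. In ref6-3 and ref6C all but 6 and 5 of the 14 were called, against 34.7% and 38.8% of all genes. The difference from those shares was not tested. MYB21, a factor of petal and stamen filament elongation, was at 0.152 ± 0.176 CPM in ref6-3, 4.6 ± 0.516 in ref6C, 1.79 ± 0.201 in the double mutant and 0.247 ± 0.0486 in the triple mutant against 11.8 ± 0.558 in WT. Its close relative MYB24 was at 0.0599 ± 0.0536, 1.58 ± 0.155, 0.679 ± 0.249 and 0.114 ± 0.0760 CPM in that order against 5.50 ± 0.291 in WT. Both were called lower in each mutant. PRE6, a small helix-loop-helix protein, was at 20.6 ± 0.831 CPM in ref6-3, 32.3 ± 2.06 in ref6C, 14.3 ± 1.26 in the double mutant and 19.6 ± 0.872 in the triple mutant against 26.0 ± 0.266 in WT, called higher in ref6C and lower in the other mutants. PIF4, a light-regulated growth factor, was lower in ref6C (4.43 ± 0.156 CPM against 7.84 ± 0.594 in WT). BES1, a brassinosteroid response factor, was at 78.3 ± 0.75, 79.3 ± 0.608, 93.2 ± 2.64 and 93.1 ± 2.38 CPM in the same order of mutants against 68.9 ± 1.33 in WT, and PIF3 at 14.2 ± 0.395, 13.2 ± 0.375, 16.9 ± 0.0349 and 18.3 ± 0.908 CPM in the same order of mutants against 11.6 ± 1.11 in WT, both called higher in each mutant.

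The authors' own statistics, made without ref6C replicate 3, were counted at an adjusted p below 0.05. In the authors' deposited table, 4 expansins were higher and 10 lower in ref6-3 than in WT, 10 and 6 in ref6C, 6 and 12 in the double mutant, and 8 and 11 in the triple mutant. For XTHs the authors' deposited table had 7 higher and 5 lower for ref6-3, 2 and 9 for ref6C, 5 and 8 in the double mutant, and 5 and 10 in the triple mutant. In the same order of mutants, 24, 24, 25 and 24 expansins and 22, 22, 25 and 23 XTHs had a deposited adjusted p. The fit above tested 20 of each family. Its count of lower XTHs in ref6-3 was 9 against the authors' 5, and the cause was not tested. The direction of the deposited fold changes was taken as WT over mutant and turned. Of the 40 tested members, 36 have no exonic 50-base window found elsewhere in the genome, and in the other 4 such windows make up at most 1.77%.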

How the data were processed

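RNA of unopened flowers was sequenced in 15 libraries, 3 for each of 5 genotypes, from total RNA with a strand-marking kit, per the labels' protocols. The authors deposited whole-number counts per gene and library, together with FPKM from RSEM, per the file headers. The deposited table also holds the authors' log2 fold changes, with WT named first, and their p-values and adjusted p-values, for which its header says that ref6C replicate 3 was left out. STAR, RSEM 1.2.22 and DESeq2 and the build TAIR10 are named in the submitters' processing notes; their settings and whether counting used strand are not given in the sources used here.

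From the deposited counts, genes were filtered with edgeR's filterByExpr by genotype, scaled by TMM and fitted with edgeR 4.0.16 (R 4.3.3) as a quasi-likelihood model over all 15 libraries, with 7 comparisons of the genotypes. P-values were adjusted by Benjamini-Hochberg over all 22411 genes tested, with a threshold of 0.05. The SE of a log2 fold change was worked back from the test, as its absolute value divided by the square root of the F statistic. CPM are TMM-normalized. Tables and figures were made with Python 3.11.15, pandas 2.3.3 and matplotlib 3.10.9. The fit was tested on simulated data. Replicates of a genotype differed by more than counting noise, so none was merged.

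The members and the lists of wall, regulator and marker genes were chosen with earlier results of these data known. Of 73 list genes, 67 were matched by symbol; CSLC8, FUT1, BUPS1, BUPS2, MS2 and A9 were not. Genes are named in the text when they are among the 6 highest of a family by mean FPKM, among the 5 (WT comparisons) or 3 (between mutants) largest called changes per family and direction with mean log2 CPM at or above 1 and libraries that do not overlap, or among the 3 smallest adjusted p-values of a pathway list in a WT comparison; others are said to be picked for their values. Alternatives were RLE scaling, DESeq2 1.42.0, no filter, a filter of 1 CPM in 3 libraries, a fit of only the groups compared, a replicate block, and leaving out each library.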

Additional observations from a re-analysis of the deposited data

How the results depend on the processing

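None of the 14 counts of members called higher or lower over both families together moved by more than 1.5 times under any alternative run. Split by family, the expansins lower in the triple against the double mutant numbered 3 in place of 5 under DESeq2 and without triple mutant replicate 2 or 3, and the XTHs higher there 2 in place of 1 when only these groups were fitted and without double mutant replicate 1 or triple mutant replicate 1. Leaving out each library in turn gave, for ref6-3 against WT, 11 to 13 members higher and 15 to 19 lower, 12 to 13 and 14 to 17 in ref6C, 10 to 13 and 19 to 20 in the double mutant, and 13 to 14 and 20 to 22 in the triple mutant. The same ranges were 11 to 13 and 12 to 14 for ref6C against ref6-3, 16 to 18 and 16 to 18 for the double mutant against ref6C, and 6 to 8 and 10 to 14 for the triple against the double mutant. Of 133 values of named members, 123 kept their direction and their side of the threshold under every alternative run. The reversals were of uncalled values near 0 in the double mutant against WT: EXPA6, which ranged from -0.00 without double mutant replicate 1 to 0.04 without replicate 3, and XTH16, which ranged from -0.04 without WT replicate 2 to 0.01 without WT replicate 3 and 0.01 without double mutant replicate 1; the cause was not tested. Replicate numbers did not pair the libraries: of 30 same-numbered pairs 1 had a correlation of deviations over 0.1 (range -0.107 to 0.101), and 0 of 15 libraries correlated best with their own number. With the replicate number as a block, ref6-3 had 11 members higher and 19 lower than WT, ref6C had 13 and 17, the double mutant 12 and 19, and the triple mutant 13 and 22, and 14 and 13, 18 and 17, and 8 and 12 in the 3 comparisons between mutants. The 25 members with too few counts to test are given by their counts, and whether depth or absence from buds sets them was not tested.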

Other observations

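The 5 relatives whose descriptions fall outside the rule were tested in the same fit with edgeR's quasi-likelihood test and Benjamini-Hochberg adjustment. EXP3 (AT2G37640), an alpha-expansin with a mean of 28.1 FPKM, was higher in ref6C (log2 fold change 0.60 ± 0.05), the double mutant (0.56 ± 0.05) and the triple mutant (0.60 ± 0.05) than in WT, and at 0.12 ± 0.05 in ref6-3 (adjusted p = 0.0740). XTH27 (AT2G01850), at a mean of 15.5 FPKM, was higher in ref6-3 (0.21 ± 0.05) and lower in ref6C (-0.43 ± 0.06), the double mutant (-0.38 ± 0.06) and the triple mutant (-0.46 ± 0.06) than in WT.

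The other 3 are low. XTH23 (AT4G25810), at a mean of 0.430 FPKM, was lower than WT in ref6-3 (-1.84 ± 0.37, adjusted p = 3.03e-04), ref6C (-1.83 ± 0.37, 2.45e-04) and the triple mutant (-0.99 ± 0.32, 0.00829), and at 0.26 ± 0.27 in the double mutant (0.401). It was 2.09 ± 0.36 higher in the double mutant than in ref6C (1.40e-05). XTH33 (AT1G10550) was lower than WT in ref6C (-0.96 ± 0.32), the double mutant (-1.34 ± 0.34) and the triple mutant (-1.49 ± 0.34) and at -0.65 ± 0.31 in ref6-3 (adjusted p = 0.103). XTH31 (AT3G44990) was higher than WT in ref6-3 (1.62 ± 0.58), ref6C (1.86 ± 0.55), the double mutant (1.5 ± 0.58) and the triple mutant (2.02 ± 0.53), at a mean of 0.195 FPKM over all libraries.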
